A study of Mus musculus with 15 samples.

Results

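The Hsd3b genes encode the 3-beta-hydroxysteroid dehydrogenases of the mouse, and 6 of them, Hsd3b1, Hsd3b2, Hsd3b3, Hsd3b5, Hsd3b6 and Hsd3b7, were measured in embryonic liver cells with and without a label of Klf3 knockout. The family was chosen by name because the probe set of Hsd3b6 read lower in knockout-labelled (KO) than in wild-type (WT) TER119 positive cells, so its values in that comparison are given as a description with no test. Each of the 6 genes had exactly 1 probe set with 1 symbol, among 19938 genes measured in that way. A pair of further probe sets carries several symbols that include Hsd3b4, Hsd3b5 and Gm10681, and was not used here.

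The samples were livers of FVB/NJ mouse embryos at E14.5, mid-gestation, when the liver is the main site of red cell formation. Cells were separated with magnetic beads against TER119, an antigen of maturing red cell precursors, into a TER119 positive fraction (kept on the column) and a TER119 negative fraction (depleted of labelled cells). The 15 arrays comprised 4 WT TER119 positive, 3 KO TER119 positive, 4 WT TER119 negative and 4 KO TER119 negative samples. No other allele or agent is named for any group, and nothing in them states which stretch of Klf3 was deleted, whether embryos were pooled or whether replicates came from separate embryos. The p-values therefore measure the spread between these arrays, which may be partly technical. Klf3, a zinc finger factor that mostly represses genes through CACCC-type sites, read 10.55, 10.34 and 10.52 in the KO TER119 positive arrays and 10.37, 9.94, 10.50 and 10.08 in the WT ones on the log2 scale. In TER119 negative cells it read 8.02, 8.49, 8.74 and 8.09 in KO and 8.80, 8.22, 8.55 and 7.94 in WT arrays. The groups overlapped in both fractions, so this probe set did not separate the genotypes, and it checks them only if its probes lie in the deleted part, which the labels do not give. "KO" below means the library labelled KO.

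All values are log2 signals, where a difference of 1 is a doubling of the signal. The sort was checked with defining markers. Slc4a1, the band-3 anion exchanger of red cells, read 13.19 to 13.31 in TER119 positive and 7.45 to 8.82 in TER119 negative arrays. Albumin (Alb), a hepatocyte product, read 13.48 to 13.70 in TER119 positive and 8.37 to 11.35 in TER119 negative arrays, and alpha-fetoprotein (Afp) read 12.73 to 13.09 and 7.38 to 10.33. The TER119 positive fraction thus carried more hepatocyte RNA than the TER119 negative fraction. In sorted bulk samples, fewer cells of a type and less RNA per cell cannot be told apart. By X- and Y-linked genes, all 4 WT TER119 negative arrays read as male and 3 of the 4 KO TER119 negative arrays as female, while WT TER119 positive arrays were 2 of each and KO TER119 positive arrays 1 male and 2 female. Correlations between arrays within a group ran from 0.971 to 0.995, and 0 pairs were identical.

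The enzymes of this family oxidise the 3-beta hydroxyl group of a steroid and move a double bond of its ring system, a step that the hormones of the adrenal and gonads pass through on the way from pregnenolone. In mice Hsd3b1 serves the adrenal and gonads, and Hsd3b6 is known as an isoform of other steroid-making cells such as placental giant cells and the adrenal. Hsd3b2 and Hsd3b3 are close relatives expressed in liver and kidney among other tissues, and Hsd3b5 is a liver isoform of the adult male that works mainly as a ketosteroid reductase. Hsd3b7 acts in another pathway, as a dehydrogenase of the early steps of bile acid synthesis in the liver. In RefSeq (GRCm38.p6), Hsd3b1, Hsd3b2, Hsd3b3, Hsd3b5 and Hsd3b6 lie in a cluster on chromosome 3, and Hsd3b7 lies alone on chromosome 7.

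Promoter windows were available for all 6 genes, with a second start for Hsd3b3, as 250 bases before and 50 after the transcript start in RefSeq on GRCm38.p6. Those of Hsd3b6, Hsd3b3 and Hsd3b1 are printed because they are neighbouring genes of the cluster that differ in the letters CACCC, the core of the sites that KLF factors bind. Capitals mark CACCC on either strand (as GGGTG where it lies on the other strand), and each sequence reads 5′ to 3′ along its gene. All 3 genes lie on the minus strand, at chr3:98814394-98814693 for Hsd3b6, chr3:98763079-98763378 for Hsd3b3 and chr3:98859745-98860044 for Hsd3b1.
Hsd3b6: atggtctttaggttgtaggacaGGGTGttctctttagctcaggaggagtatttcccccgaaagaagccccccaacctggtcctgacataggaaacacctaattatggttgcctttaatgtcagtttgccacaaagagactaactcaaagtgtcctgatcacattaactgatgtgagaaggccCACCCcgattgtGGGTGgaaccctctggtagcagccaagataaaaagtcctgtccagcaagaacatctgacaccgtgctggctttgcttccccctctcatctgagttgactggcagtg
Hsd3b3: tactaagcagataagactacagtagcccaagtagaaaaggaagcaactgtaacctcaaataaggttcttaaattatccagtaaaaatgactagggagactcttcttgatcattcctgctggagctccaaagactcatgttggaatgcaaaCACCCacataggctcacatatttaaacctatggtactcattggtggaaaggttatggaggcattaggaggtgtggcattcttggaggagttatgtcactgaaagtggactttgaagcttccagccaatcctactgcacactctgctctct
Hsd3b1: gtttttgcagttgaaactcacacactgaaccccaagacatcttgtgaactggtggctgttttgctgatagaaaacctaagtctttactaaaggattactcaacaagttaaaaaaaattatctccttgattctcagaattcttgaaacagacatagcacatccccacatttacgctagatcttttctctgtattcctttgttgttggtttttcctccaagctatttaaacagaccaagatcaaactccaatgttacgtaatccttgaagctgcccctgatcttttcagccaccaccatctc

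The Hsd3b6 window held 3 matches to CACCC, beginning at positions -228, -68 and -56 from the start. The window of Hsd3b3 held 1, at -100, and those of Hsd3b1 and Hsd3b2 held 0. Hsd3b5 and Hsd3b7 held 1 each, and the second start of Hsd3b3 also 1. Over 32851 promoters of the same length, 57.5% held at least 1 match on either strand and 9.35% held at least 3. The letters AGATAA, a form of the site that GATA factors bind, occurred in the windows of Hsd3b6 (beginning at -31), Hsd3b1 (at -134) and Hsd3b3 (at -242), and in 11.2% of all promoters. The letters AAGGTCA, of the site that NR5A factors bind, occurred in 0 of the members' windows and in 4.72% of all promoters. None of these matches overlapped another in the windows printed. A match describes letters only, and the data hold no measurement of binding.

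Hsd3b6 was the member with a large gap between genotypes in TER119 positive cells, which is why it was picked. Its log2 signal was 10.10, 9.22, 9.89 and 9.87 in WT TER119 positive arrays and 7.63, 7.43 and 7.83 in KO TER119 positive arrays. The groups did not overlap, and the lowest WT array stood 1.39 above the highest KO array. The means were 9.77 ± 0.38 (SD, n = 4) and 7.63 ± 0.20 (SD, n = 3), a difference of -2.14 (SE 0.23), or a 4.41-fold lower signal, given without a test. The signal in KO TER119 positive arrays was still above that of every TER119 negative array.

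The other 5 members showed no such gap. Hsd3b1 read 5.59, 5.74, 5.14 and 5.63 in WT and 5.75, 5.38 and 5.54 in KO TER119 positive arrays. Hsd3b3 read 4.85, 5.39, 6.22 and 6.29 in WT and 6.20, 5.73 and 5.08 in KO, the widest scatter within a group of the family in this fraction. The bile acid enzyme Hsd3b7 read 6.76, 6.96, 6.48 and 7.10 in WT and 7.23, 7.02 and 6.80 in KO. These overlapping groups gave KO minus WT differences of 0.03 (SE 0.15) for Hsd3b1, -0.02 (SE 0.30) for Hsd3b3 and 0.19 (SE 0.14) for Hsd3b7. Hsd3b2 and Hsd3b5 differed by -0.10 (SE 0.12) and -0.05 (SE 0.11) at signals below the array median. Hsd3b3 also lay below it on 2 of the 4 WT and 1 of the 3 KO arrays, and Hsd3b1 on 1 of the 4 WT arrays. Groups did not overlap for 1 of the 6 members, beside 10.1% of all genes in either direction and 4.81% with KO lower. Of all genes 1.02% were called at an adjusted p below 0.05 (limma's moderated test, Benjamini-Hochberg adjustment over 19938 genes), 0.903% higher and 0.115% lower in KO, and 5.33% had an unadjusted p below 0.05. Since the comparison chose the family, nothing is read from these shares about the members.

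**Figure D1:**
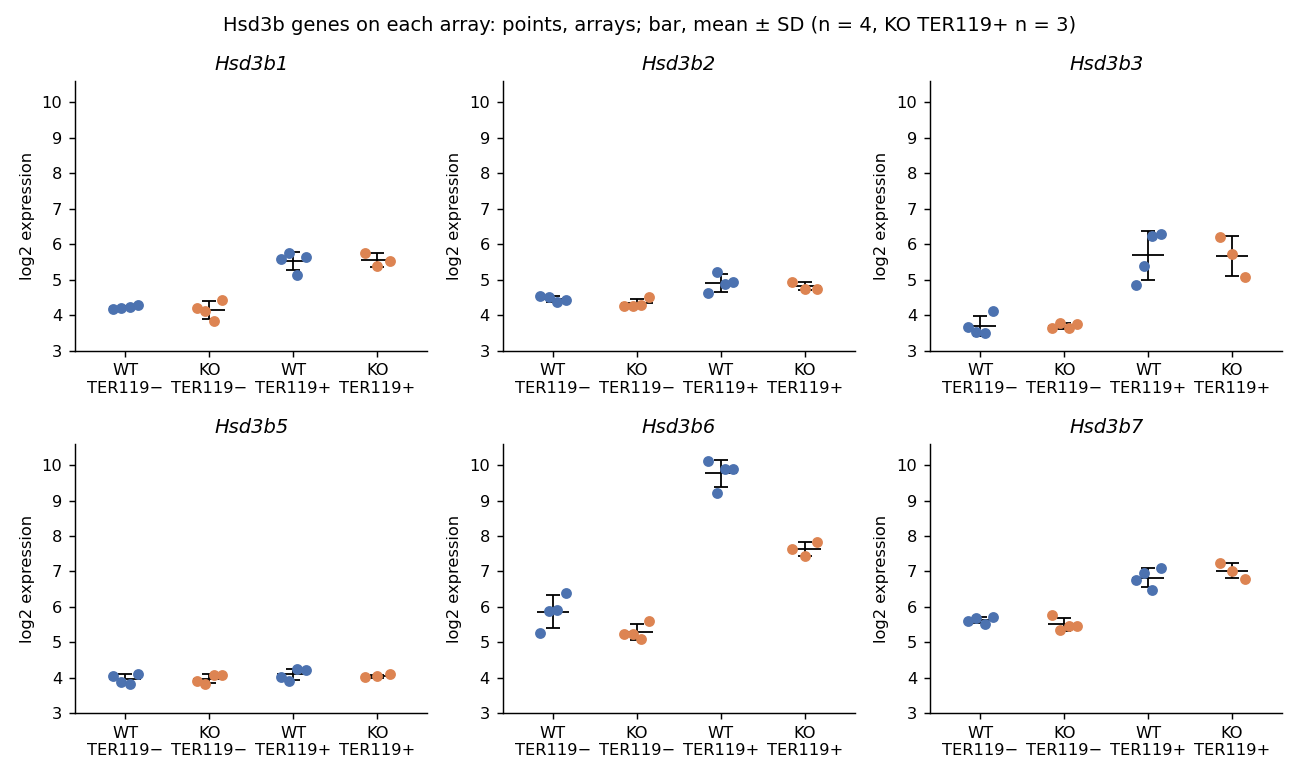
Log2 signal of each Hsd3b gene (one panel per gene, on a shared vertical scale) in every array of the 4 groups, with points for arrays and lines for the group mean and 1 SD. Hsd3b6 separates WT from KO in TER119 positive cells (means 9.77 and 7.63), and in the panels of the other genes the WT and KO points overlap within each fraction.

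Markers of several cell types were set beside that gap. The 8 measured megakaryocyte genes were all lower in KO TER119 positive cells, with a median difference of -0.75, against -0.01 over all genes. Groups did not overlap for 8 of 8, beside 4.81% of all genes with KO lower. The megakaryocyte mean was 9.20 to 9.52 in WT and 8.40 to 8.77 in KO arrays, and 0 of the 8 passed the adjusted threshold. Pf4, a platelet chemokine, differed by -0.87 (SE 0.34, adjusted p = 0.669 by limma), and Itga2b, a platelet integrin, by -0.71 (SE 0.34, adjusted p = 0.976). In WT TER119 negative arrays the megakaryocyte mean was 8.14 to 9.56, and Hsd3b6 read 5.25 to 6.39. These levels come from different probe sets, and their relation was not computed. Pf4 and Itga2b were picked after their values were seen. The part of the megakaryocyte genes in the gap was not tested.

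Of the 14 measured hepatocyte-lineage genes, 13 had the higher mean in KO TER119 positive cells (median difference 0.11), with 0 called and 0 non-overlapping. Their mean was 10.85 to 11.59 in WT and 11.03 to 11.53 in KO TER119 positive arrays. With that mean in the model, a setting added after the data were seen, the difference of Hsd3b6 was -2.18 (SE 0.21). That model gave both fractions the same slope. Hsd3b6 rose with the hepatocyte mean in TER119 negative arrays and fell with it in WT TER119 positive arrays. The value is therefore not an adjustment for the relation within TER119 positive cells. Steroidogenic-cell genes (7 measured) had a mean of 4.28 to 4.53 in WT and 4.27 to 4.39 in KO arrays, below the array median. All 7 had the lower mean in KO (median difference -0.09), with 0 called and 0 non-overlapping. Among them Star, the carrier that brings cholesterol into mitochondria, read 4.53 in WT and 4.36 in KO, and Cyp11a1, the enzyme that cuts the cholesterol side chain, 4.14 and 4.07. These genes were picked as the defining members of their list, outside the rule for named genes. Trophoblast genes (4 measured) had group means between 4.49 and 4.56 in the 4 groups. The mean of the 8 neutrophil genes was 5.48 to 6.15 in KO and 5.21 to 5.71 in WT TER119 positive arrays, which overlap. All 8 had the higher mean in KO (median difference 0.31), with 0 called and 1 non-overlapping, beside 10.1% of all genes. Stromal genes (10 measured) had means of 6.92 in KO against 6.62 in WT, with 8 higher and 2 lower in KO (median difference 0.36). Endothelial genes had means of 7.49 against 7.52, with 5 higher and 5 lower. Macrophage genes had means of 8.06 against 8.19, with 7 higher and 6 lower. Of the 13 macrophage genes 1 was called, Vsig4, a complement receptor of tissue macrophages, lower in KO by a difference of -1.21 (SE 0.17, limma adjusted p = 0.000491), named after its value was seen. Red cell precursor genes (12 measured) had means of 11.44 and 11.47, with 7 lower and 5 higher in KO and 0 called. Groups did not overlap for 6 of the 12, beside 10.1% of all genes in either direction. Mast cell genes had means of 4.93 and 4.99. The part of the cell types of these lists in the gap was not tested.

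In TER119 negative cells, which the choice of the family did not use, 0 of the 6 members were called between KO and WT, where 0.0853% of all genes were called. Hsd3b6 read 5.25, 5.89, 5.91 and 6.39 in WT and 5.23, 5.24, 5.10 and 5.60 in KO arrays. The groups overlapped because the lowest WT array lay at the level of the KO arrays. The signal lay below the array median on 3 of the 4 KO and 1 of the 4 WT arrays. The difference was -0.57 (SE 0.21, 95% interval -1.02 to -0.12), a 1.48-fold lower signal, with a limma adjusted p of 0.644 and an unadjusted p of 0.0171, in a comparison in which 7.56% of genes had an unadjusted p below 0.05. The exact permutation test over the 8 arrays, 2-sided, gave p = 0.0571, where 0.0286 is the smallest it can give. Without the 3 TER119 negative arrays that stood apart in an earlier description of these data (WT replicates 2 and 4 and KO replicate 4), the difference was -0.39. With sex, as read from X- and Y-linked genes, in the model it was -0.72. All 4 WT arrays of this fraction read as male and 3 of the 4 KO arrays as female. Sex and genotype can therefore hardly be told apart here.

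The other members differed by less between KO and WT TER119 negative cells. Hsd3b1 read 4.18, 4.20, 4.23 and 4.29 in WT and 4.20, 4.13, 3.84 and 4.43 in KO, a difference of -0.08 (SE 0.14, 95% interval -0.37 to 0.22). Hsd3b3 read 3.66, 3.53, 3.50 and 4.11 in WT and 3.63, 3.77, 3.65 and 3.75 in KO. Hsd3b7 read 5.61, 5.70, 5.53 and 5.72 in WT and 5.77, 5.36, 5.46 and 5.46 in KO, a difference of -0.13 (SE 0.13, 95% interval -0.41 to 0.16). The KO and WT arrays of these 3 genes overlapped. Hsd3b1 and Hsd3b3 lay below the array median on every TER119 negative array, as did Hsd3b2 and Hsd3b5. Hsd3b2 and Hsd3b5 differed by -0.13 (SE 0.12) and -0.00 (SE 0.10), and Hsd3b3 by -0.00 (SE 0.28, 95% interval -0.59 to 0.59). The SE of Hsd3b3 pools the spread of all 4 groups. With only the 2 groups compared it was 0.14. Groups did not overlap for 0 of the 6 members, beside 2.63% of all genes. The adjusted p-values of these 5 genes ran from 0.735 to 1 (limma).

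Among the TER119 negative arrays, Hsd3b6 was higher where the hepatocyte-list mean was higher. In order of rising hepatocyte-list mean, from 5.72 to 7.87, Hsd3b6 read 5.10, 5.25, 5.24, 5.23, 5.89, 5.60, 5.91 and 6.39. Over the 8 arrays Pearson's r was 0.94 (exact permutation p = 0.00117, adjusted over 6 members 0.00699) and Spearman's rho was 0.88 (exact permutation p = 0.00724, adjusted 0.0217). Without the 2 arrays farthest from the median hepatocyte mean, r was 0.86. The relation was not computed within a genotype, which has 4 arrays, and all 8 values share arrays in which KO had the lower hepatocyte mean (5.72 to 7.08 against 5.94 to 7.87). Hsd3b1 had r = 0.70 (exact permutation p = 0.0389, adjusted 0.117) and rho = 0.90 (exact permutation p = 0.00456, adjusted 0.0217), and r = 0.60 without the 2 farthest arrays. Its signals lay below the array median on all 8 arrays. For the other 4 members r ran from 0.11 to 0.45, with adjusted permutation p of at least 0.50. With the hepatocyte mean in the model, the KO minus WT difference of Hsd3b6 in TER119 negative cells was -0.37 (SE 0.22). That model gave both fractions the same slope. In WT TER119 positive arrays, however, Hsd3b6 fell from 10.10 to 9.22 as the hepatocyte mean rose from 10.85 to 11.59. The shared slope is thus not that of the TER119 negative arrays, and -0.37 is not an adjustment for the relation described above. Other lists shifted too, with 0 genes called. The mean was lower in KO for 10 of 10 endothelial, 9 of 10 stromal, 8 of 8 neutrophil, 8 of 8 megakaryocyte and 8 of 13 macrophage genes. Their median differences were -0.21, -0.13, -0.27, -0.24 and -0.07 in that order. Hepatocyte-lineage genes had a median difference of -0.84, with 13 of 14 lower in KO. For red cell precursor genes 12 of 12 were higher in KO (median difference 0.38). The relation of Hsd3b6 to these other lists was not computed, so it is not shown to be particular to the hepatocyte list.

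**Figure D2:**
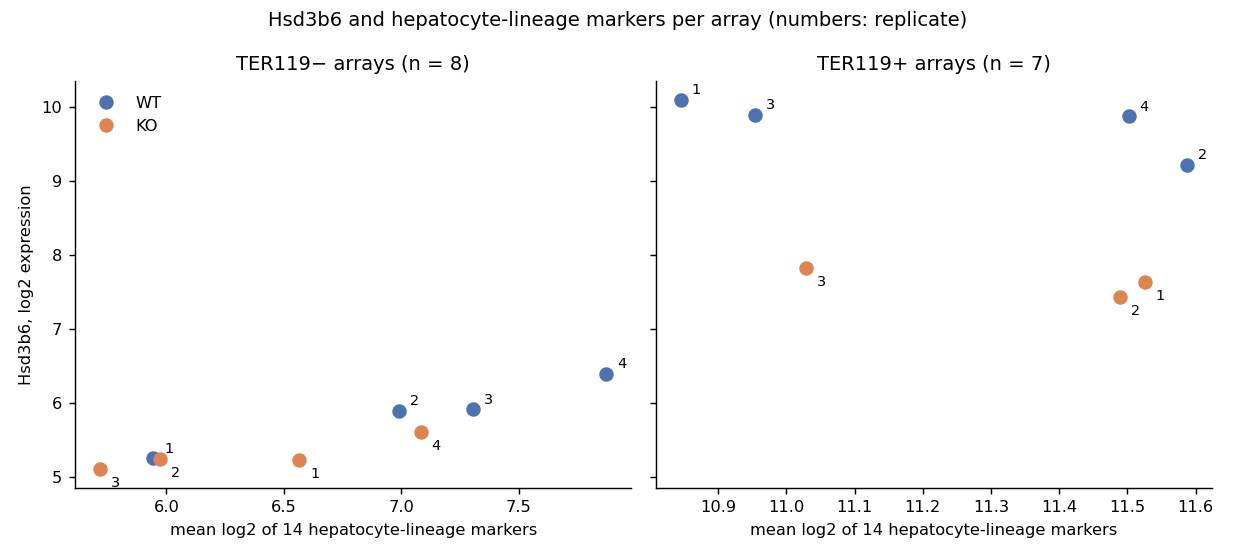
Log2 signal of Hsd3b6 against the mean log2 signal of the 14 hepatocyte-lineage genes in TER119 negative arrays (left) and TER119 positive arrays (right), one point per array with its replicate number. In TER119 negative arrays the points rise together (r = 0.94 over 8 arrays), and in TER119 positive arrays WT and KO lie at like hepatocyte means and apart in Hsd3b6.

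Between the fractions, members of the family were higher in TER119 positive than in TER119 negative WT cells. For Hsd3b6 the gap was 3.91, a 15.03-fold higher signal, given with no test because its WT TER119 positive arrays were used in choosing it. Of the other 5 members, 4 rose by the adjusted test and 1, Hsd3b5, did not pass, beside 52.6% of all genes called, 23.5% higher and 29.1% lower. Leaving out Hsd3b6, groups did not overlap for 4 of the other 5 members, against 45.6% of all genes in either direction and 20.9% with TER119 positive higher.

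Hsd3b3 had the largest of the tested rises at 1.99 (SE 0.28, 3.96-fold, limma adjusted p = 1.32e-05), although its WT TER119 positive arrays spread from 4.85 to 6.29. Hsd3b1 rose by 1.30 (SE 0.14, 2.47-fold, limma adjusted p = 5.36e-07), with every WT TER119 positive array (5.14 to 5.74) above every WT TER119 negative array (4.18 to 4.29). Hsd3b7 rose by 1.19 (SE 0.13, 2.28-fold, limma adjusted p = 1.1e-06). The TER119 negative signals of Hsd3b3 and Hsd3b1, from which their fold rises are counted, lay below the array median. Hsd3b2 read 4.61, 5.23, 4.87 and 4.94 in TER119 positive and 4.54, 4.52, 4.36 and 4.43 in TER119 negative WT arrays, a rise of 0.45 (SE 0.12, limma adjusted p = 0.00358) in signals that lay below the array median on all 15 arrays. Each of these 4 genes gave the smallest 2-sided p that the exact permutation test of 4 against 4 arrays allows, 0.0286. Hsd3b5 read 4.02, 3.91, 4.26 and 4.21 in TER119 positive and 4.05, 3.90, 3.84 and 4.12 in TER119 negative WT arrays, a difference of 0.12 (SE 0.10, limma adjusted p = 0.336), also below the array median on all 15 arrays. The hepatocyte-lineage mean rose with the family, from 7.03 ± 0.81 (SD, n = 4) to 11.22 ± 0.38 (SD, n = 4). Several other cell type lists were also higher in WT TER119 positive cells. Red cell precursor genes had means of 11.47 against 8.28 (12 of 12 called higher) and macrophage genes 8.19 against 5.52 (12 of 13). Endothelial genes had 7.52 against 5.88 (8 of 10) and stromal genes 6.62 against 5.02 (9 of 10). The shares of all genes were 23.5% higher and 29.1% lower. Neutrophil genes were called lower for 8 of 8, mast cell genes for 5 of 7 (1 higher) and steroidogenic-cell genes for 4 of 7 (0 higher). Megakaryocyte genes were called higher for 2 of 8, and trophoblast genes for 0 of 4. The part of RNA of any of these cell types in the rises of the Hsd3b genes was not tested. Any batch that coincided with the fraction cannot be told apart from it.

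In the KO arrays the same gap was 1.41 for Hsd3b1, 0.48 for Hsd3b2, 1.97 for Hsd3b3, 0.08 for Hsd3b5 and 1.50 for Hsd3b7, and 2.34 (5.05-fold) for Hsd3b6. These are given as descriptions. The KO gaps of the members other than Hsd3b6 lay within 0.32 of those in WT, and that of Hsd3b6 differed from its WT gap by -1.57. The KO and WT gaps share no arrays, and their difference was not tested.

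The neighbours of the cluster on chromosome 3 were read next, up to 5 named protein-coding genes to either side in RefSeq order. The 9 described here were Adam30, Reg4, Phgdh and Zfp697 on one side, Hao2, Wars2, Tbx15, Spag17 and Wdr3 on the other. Between KO and WT, 0 of the 9 were called in either fraction, where 1.02% of all genes were called in TER119 positive and 0.0853% in TER119 negative cells, so that a count of 0 says little about them. In TER119 positive cells Phgdh, an enzyme of serine synthesis, differed by 0.39 (SE 0.16, limma adjusted p = 0.709). Hao2, a peroxisomal hydroxyacid oxidase, read 5.24, 6.72, 5.45 and 6.49 in WT and 6.29, 6.38 and 5.17 in KO TER119 positive arrays, with groups that overlapped. Between fractions in WT, 3 of the 9 were called higher, 2 lower and 4 did not pass, beside 52.6% of all genes called. Hao2 rose by 1.98 (SE 0.30), Zfp697 by 1.50 (SE 0.11) and Phgdh by 0.64 (SE 0.15). Wars2, a mitochondrial aminoacyl-tRNA synthetase, fell by 0.84 (SE 0.15) and Wdr3 fell by 0.78 (SE 0.23) on the log2 scale.

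**Figure D3:**
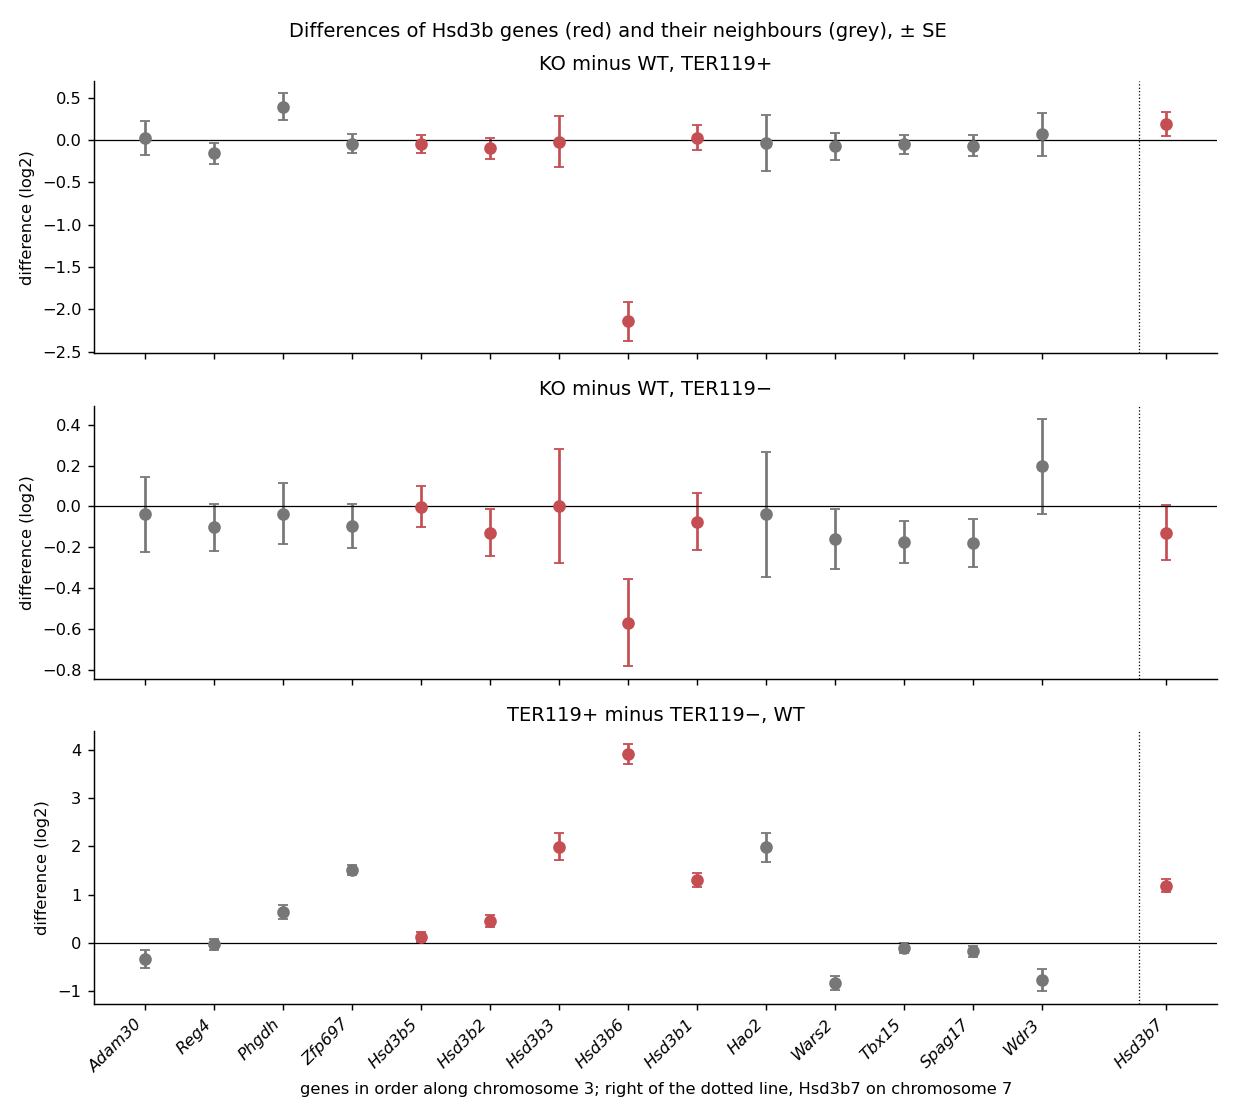
Difference between groups (log2) for each measured gene of the Hsd3b cluster and its neighbours in RefSeq order along chromosome 3, with Hsd3b7 of chromosome 7 to the right of the dotted line, with 1 SE, for KO minus WT in TER119 positive and TER119 negative cells and for TER119 positive minus negative in WT. Hsd3b6 is the gene farthest below 0 in the KO minus WT panel of TER119 positive cells (-2.14).

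Of 73 genes on lists of steroid and bile acid metabolism, 64 were measured, and 0 were called between KO and WT in TER119 negative cells. In TER119 positive cells 1 was called, Tspo, which encodes a mitochondrial outer membrane protein long linked to cholesterol handling. It was higher in KO, at 9.54 ± 0.03 (SD, n = 3) against 8.68 ± 0.17 (SD, n = 4), a difference of 0.86 (SE 0.15, limma adjusted p = 0.00688). So 1 of 64 pathway genes was called, beside the 1.02% of all genes. The median KO minus WT difference in TER119 positive cells was -0.01 for steroid hormone synthesis, 0.08 for interconversion and 0.16 for bile acid synthesis, against -0.01 over all genes.

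Between fractions in WT, 29 of the 64 genes rose, 10 fell and 25 did not pass, beside 23.5% of all genes higher and 29.1% lower. Bile acid synthesis had 9 of 15 higher and 0 lower (median 0.44 against -0.09 over all genes). The regulators had 7 of 10 higher and 0 lower (median 0.96), and steroid interconversion 9 of 19 higher and 2 lower (median 0.43). Steroid hormone synthesis had 3 of 13 higher and 5 lower (median -0.27), the receptors 1 of 6 higher and 2 lower (median 0.04), and the related 3-beta dehydrogenases 0 of 2 higher and 1 lower.

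Slc27a2, an acyl-CoA ligase and fatty acid transporter of bile acid conjugation, rose by 4.65 (SE 0.32), and Hsd17b2, which inactivates androgens and oestrogens, rose by 3.20 (SE 0.27). Acox2, a peroxisomal oxidase of bile acid side chains, rose by 3.06 (SE 0.26). Akr1d1, the reductase that follows Hsd3b7 in bile acid synthesis, rose by 1.78 (SE 0.29). Akr1c13, a keto-reductase, rose by 1.75 (SE 0.26), and Cyb5a, the cytochrome b5 that assists steroid-cutting enzymes, by 2.54 (SE 0.11). Of the regulators, the hepatocyte factor Hnf4a, which is also on the hepatocyte list, rose by 3.19 (SE 0.15), the oxysterol receptor Nr1h3 by 2.33 (SE 0.12), and Nr5a2, the liver relative of the steroidogenic factor Nr5a1, by 2.18 (SE 0.19). Hsd11b1, which regenerates active glucocorticoid, fell by 2.23 (SE 0.20). The fraction in which these genes rose also had the higher means of the hepatocyte, red cell precursor, macrophage, endothelial and stromal lists. Its means of the neutrophil, mast cell and steroidogenic-cell lists were lower. The part of these cell types was not tested.

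**Figure D4:**
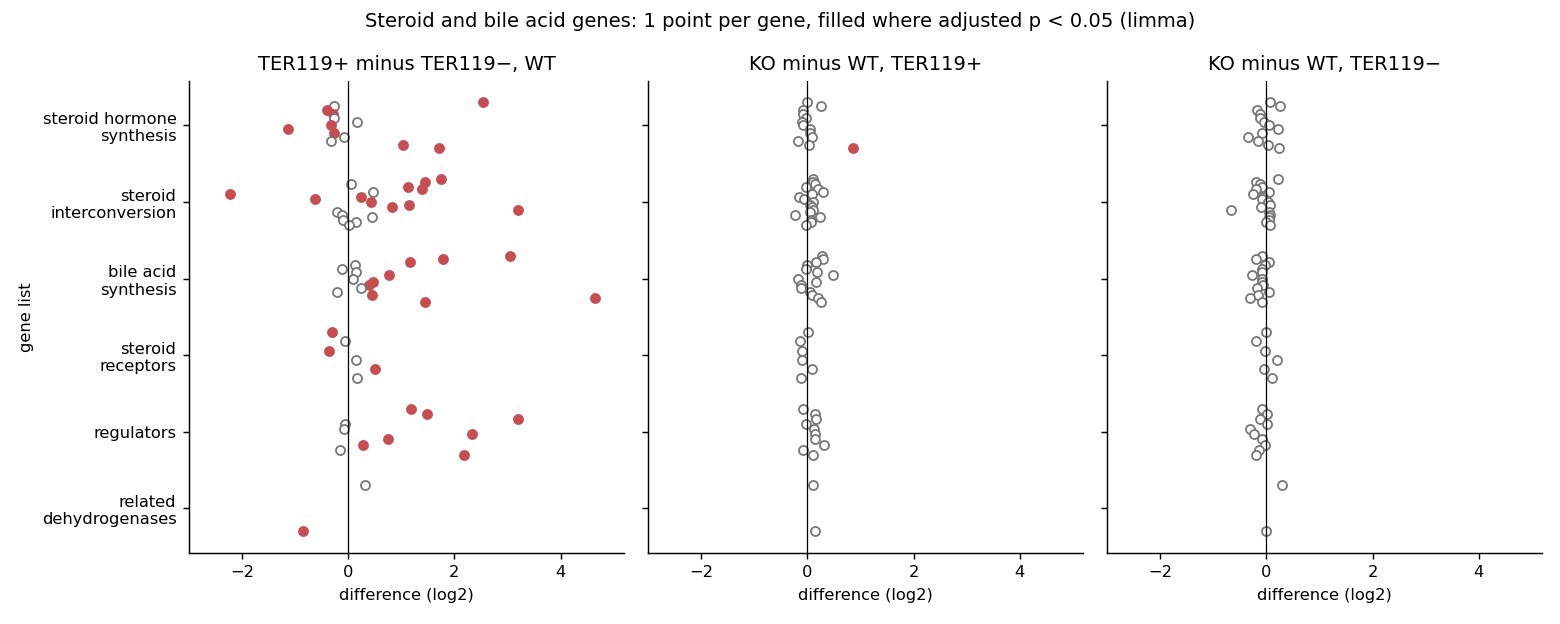
Log2 difference of every measured gene of the steroid and bile acid lists for KO minus WT in each fraction and for TER119 positive minus negative in WT, one row of points per list (Hsd17b4 stands in 2 lists), filled where the adjusted p is below 0.05. In the KO minus WT panels 1 gene, Tspo in TER119 positive cells, is filled, and in the fraction panel 29 rises and 10 falls are.

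The genes whose signal ran most like Hsd3b6 over all 15 arrays, by Pearson's r given as a description, were Gfap (0.972), Grap2 (0.967), Ccdc189 (0.965), Dusp8 (0.964) and Ctsf (0.960). All arrays share the fraction difference. The other members came lower in that order, with r of 0.87 for Hsd3b1, 0.84 for Hsd3b3, 0.83 for Hsd3b7, 0.79 for Hsd3b2 and 0.47 for Hsd3b5. Over the 7 TER119 positive arrays the leading genes were Galnt1, Septin1, St7, Gzmk and Prxl2a, with r of 0.986 to 0.988, over arrays that share the genotype gap by which Hsd3b6 was chosen. There the other members had r of -0.48 to 0.34. Over the 8 TER119 negative arrays, a set added after the values were seen, they were Otc and Cps1, enzymes of the urea cycle made by hepatocytes, with Maob, Gsta3 and Olfr229, with r of 0.974 to 0.992. Cps1 is also on the hepatocyte list.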

How the data were processed

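Affymetrix MoGene ST arrays of the 15 samples were used as deposited by the authors, as log2 signals per probe set made with RMA and Partek per the submitters' processing notes, in versions not given there. RMA subtracts background, gives arrays a common distribution and summarises probes, so differences between dim signals are compressed. Values ran from 2.91 to 14.26, and array medians from 5.28 to 5.43. Levels of different probe sets are not compared.

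Of 35399 probe sets, 21789 had 1 gene symbol. The highest-mean probe set was kept for 999 genes with several, leaving 19938. Groups came from the titles. limma 3.58.1 in R 4.3.3 fitted a mean per group over all 15 arrays (11 residual degrees of freedom, prior 4.91) with no covariates, no filter and Benjamini-Hochberg adjustment over all genes, threshold 0.05, checked on simulated data. Members and lists were chosen with earlier results of these data known. Named genes were the members, pathway genes past the threshold (at most 10 per comparison by size), neighbours, the 5 genes most like Hsd3b6 over the 15 and over the 7 TER119 positive arrays, Slc4a1, Alb, Afp and Klf3; items that rule also named but that are missing from the text are not reported here. The alternatives were a replicate block, each array left out, a filter on dim genes, quantile normalization, median centring, another prior, only the 2 groups compared, all probe sets, arrays left out, sex, and, added later, the hepatocyte mean. No depth applies to arrays; their number limits the precision.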

Additional observations from a re-analysis of the deposited data

Results flagged for a closer look

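Hsd3b2 in KO TER119 negative cells was marked because replicate 4, at 4.51, stood apart from the other 3 arrays, which read 4.27 to 4.29. The gap was 0.910 of the range of the group. This was 1 of the 18 groups of 4 arrays examined, and chance marks about 1 in 20. The signal lies below the array median, and without that array the KO minus WT difference of Hsd3b2 in TER119 negative cells was -0.19.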

How the results depend on the processing

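Of 200 alternative values of the tested Hsd3b differences, 0 changed a call, and another 111 belong to differences given without a test. Uncalled or untested KO differences near 0 changed sign (in TER119 negative cells Hsd3b1 -0.17 to 0.06, Hsd3b3 -0.07 to 0.26 and Hsd3b5 -0.07 to 0.05, and in TER119 positive cells Hsd3b1 -0.10 to 0.12, Hsd3b2 -0.20 to 0.01, Hsd3b3 -0.30 to 0.28 and Hsd3b5 -0.11 to 0.0047). Hsd3b6 in TER119 positive cells ran from -2.33 to -2.03 over arrays left out, and in TER119 negative cells from -0.77 to -0.37 over all settings (adjusted p 0.249 to 1). The dim filter removed Hsd3b2 and Hsd3b5. The KO count of all genes in TER119 negative cells moved from 17 to 4 with only the 2 groups compared, 11 with all probe sets, 8 without the 3 arrays that stand apart and 7 with sex as a factor. Leaving out an array gave 8 to 24 (8 without KO replicate 3 or WT replicate 2, 11 without KO replicate 2). In TER119 positive cells 203 became 350 with only the 2 groups compared, and 148 to 184 over arrays left out. Between fractions 10486 became 16800 with all probe sets, over more features, and 9647 to 10934 over arrays left out, with 32 to 42 pathway genes around 39. The cause was not tested.

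Same-numbered replicates did not regularly deviate together (correlations -0.38 to 0.65 between KO and WT TER119 negative, -0.22 to 0.25 between KO and WT TER119 positive and -0.31 to 0.12 between the WT fractions). The highest, 0.65, was that of replicate 4. The KO fractions were not compared in this way. By X- and Y-linked genes, all 4 WT TER119 negative arrays read as male, and WT TER119 positive arrays as 2 of each sex. By that reading, same-numbered WT arrays cannot all be fractions of the same embryo. Whether the numbers pair samples otherwise is not known. With the replicate number as a block, Hsd3b6 differed by -2.04 in TER119 positive and -0.57 in TER119 negative cells (adjusted p 0.540), and the counts of genes were 186, 13 and 10558.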
